A study of Rattus norvegicus with 200 samples.

Results

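Gene expression over the day was described in the 34 libraries of rats given chow ad libitum, which are 34 of the 200 libraries of the series. They were chosen by their treatment label, and the genes described were the 14176 of 20361 whose level averaged 1 CPM or more over them. CPM is a count scaled to the size of its library. All 34 are labelled as microglia, the macrophages that live in brain tissue, from adult male wild-type Wistar rats, and no other agent or allele is named. They cover 6 Zeitgeber times (ZT) spaced 4 h apart, with 7 libraries at ZT2, 5 at ZT6, 5 at ZT10, 5 at ZT14, 6 at ZT18 and 6 at ZT22. ZT0 is lights on by convention, and ZT14, ZT18 and ZT22 were taken as the dark phase and ZT2, ZT6 and ZT10 as the light phase. The other 5 groups of the series, which differ in diet or in feeding hours, are not compared here. Whether every library stands for its own animal is not stated, so the p-values speak only of the spread among libraries, part of which may be technical.

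Library totals ran from 5.05 M to 10.16 M counts, with a median of 7.32 M. The libraries held much RNA of cells other than microglia. In FPKM, fragments per kilobase of transcript and per unit of depth, a scale that allows for gene length, the median of 22 markers of homeostatic microglia was 25.6 FPKM, against 246 FPKM for 12 oligodendrocyte markers, 159 FPKM for 15 neuron markers and 186 FPKM for 7 markers of cerebellar granule neurons. The microglial median was above the oligodendrocyte median in 0 of 34 libraries and above the neuronal median in 0 of 34. Cx3cr1, the fractalkine receptor of microglia, ran from 33.3 to 107 FPKM. Cbln1, the highest of the 7 granule neuron markers, ran from 492 to 941 FPKM, and Zic2, the lowest, from 30.9 to 66.6 FPKM. The microglial median lay above those of astrocyte (9.35 FPKM), oligodendrocyte precursor (15.6), Purkinje cell (18.2) and endothelial markers (1.52). It lay below that of erythrocyte markers (37.7 FPKM). A label of microglia alone is therefore not borne out by the marker levels, and the values below are those of mixed RNA. In such bulk RNA, fewer cells of a type and less RNA per cell cannot be told apart.

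The circadian clock of mammals is a feedback loop of transcription. CLOCK and BMAL1, the product of Arntl, bind E-box sequences and activate the Per, Cry, Nr1d1 and Dbp genes, PER and CRY proteins later repress CLOCK and BMAL1, and the REV-ERB receptors encoded by Nr1d1 and Nr1d2 repress Arntl. In nocturnal rodents glucocorticoid hormones peak near the onset of darkness and body temperature is higher in the dark phase.

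Time of day was first tested as any difference among the 6 times. Of 14176 genes, 383 (2.7%) differed at a Benjamini-Hochberg adjusted p under 0.05 in the quasi-likelihood test of edgeR, and 3153 had an unadjusted p under 0.05. A cosine of 24 h period fitted to the same counts gave 661 genes (4.66%) past the threshold, called rhythmic below, and 270 of them also passed the first test. Their median change from trough to peak was 0.38 on the log2 scale, or 1.3-fold, against 0.19 over all genes tested. Of the rhythmic genes 147 changed by 1.5-fold or more and 40 by 2-fold or more. No gene (0 of 14176) departed from the cosine shape in edgeR, where 1515 had an unadjusted p under 0.05 and the lowest adjusted p was 0.355. DESeq2 and limma with voom weights also called 0 such genes, the model with marker scores 1, and the fit of all 200 libraries 142.

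These counts were less stable than the values of the leading genes. The libraries carry title numbers, which were cut here into 4 runs: 14 to 25, 52 to 81, 109 to 118 and 135 to 152. The labels do not give this cut, and other cuts were not tried. Run 2 itself jumps from 53 to 71, much as runs 3 and 4 are parted from 118 to 135. Times are unevenly spread over the runs: ZT18 occurs in runs 1 and 2 only and ZT14 in runs 2 and 4 only. Nothing in the labels says that a run is a batch. With the run as a term in the model 120 genes differed among times and 563 were rhythmic. When libraries of the same time and run were summed to 17 units, 0 genes differed among times in edgeR and 51 were rhythmic. Without the 6 ZT18 libraries the counts were 18 and 79, and without the 7 ZT2 libraries they were 162 and 224. Single libraries also mattered. Leaving out ZT18 replicate 1 gave 145 genes differing among times and 383 rhythmic genes, and leaving out ZT14 replicate 3 gave 1010 and 1356. The count of genes differing among times also moved by over 1.5 times without ZT2 replicates 3 (1028), 4 (248) or 6 (235), ZT6 replicates 4 (255) or 5 (742), ZT10 replicate 2 (241), ZT14 replicate 1 (234) and ZT18 replicates 2 (231) or 6 (211).

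Fitted peaks gathered at opposite sides of the day. Of the 661 rhythmic genes, 301 (45.5%) peaked between ZT14 and ZT20 and 238 (36%) between ZT2 and ZT8. The 2 h bins from ZT2 to ZT8 held 9.98%, 14.4% and 11.6% of rhythmic genes, against 10.9%, 9.21% and 7.27% of all genes tested. Those from ZT14 to ZT20 held 5.6%, 25.9% and 14.1%, against 9.58%, 10.4% and 7.71%. The fullest 2 h bin was ZT16 to ZT18 with 171 genes (25.9%), where 10.4% of all genes tested had their fitted peak. Only 8 rhythmic genes (1.21%) peaked between ZT10 and ZT12, although 7.62% of all genes tested did.

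**Figure D1:**
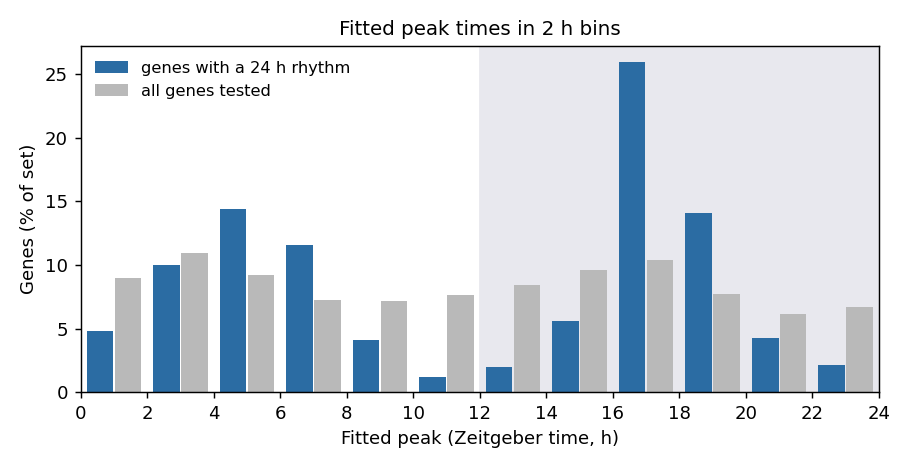
Share of genes by fitted peak time in 2 h bins (x axis, Zeitgeber time in h; y axis, percent of the set), for the 661 rhythmic genes (blue) and all 14176 genes tested (grey); shading marks ZT12 to ZT24. The blue bars form a night cluster led by ZT16 to ZT18 at 25.9% and a day cluster led by ZT4 to ZT6 at 14.4%, with few genes between ZT10 and ZT12.

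The mean of the 3 dark times minus the mean of the 3 light times differed for 689 genes (4.86%). Of these, 376 (2.65% of genes tested) were higher in the dark and 313 (2.21%) were lower in the dark, and 469 of them were among the rhythmic genes. The differences were small, with a median size of 0.24 on the log2 scale, and 37 genes differed by 1.5-fold or more. With the run as a term 292 genes were higher and 217 lower in the dark, without ZT18 61 were higher and 45 lower, and over the 17 summed units 24 were higher and 2 lower. The count of lower genes was 200 without ZT14 replicate 1 and 519 without ZT14 replicate 3.

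Pairs of times showed where the differences lay. ZT18 and ZT2 differed in 1106 genes (7.8%), of which 531 were higher and 575 lower at ZT18. ZT18 differed from ZT10 in 151 genes and from ZT6 in 121, and ZT14 differed from ZT2 in 71 and from ZT10 in 38. ZT22 differed from ZT14 in 22 genes and from ZT10 in 3, ZT10 from ZT2 in 8 and ZT14 from ZT6 in 1. The other 6 pairs gave 0 genes in edgeR, with 473 to 2551 genes at an unadjusted p under 0.05. Of these 6, ZT22 against ZT6 gave 39 genes with the run as a term and 89 with scores of cell type markers, ZT22 against ZT2 gave 1 and 25, ZT22 against ZT18 0 and 10, and ZT6 against ZT2 1 and 0. The pairs ZT10 against ZT6 and ZT18 against ZT14 gave 0 in both models. ZT18 and ZT2 share only 1 run, and with the run as a term their difference fell to 19 genes, 14 higher and 5 lower at ZT18, while ZT18 against ZT6, which share 2 runs, gave 73 genes. Marker levels moved with this pair too. The summed level of 7 granule neuron markers had a median of 5300 CPM (4770 to 5840, n = 6) at ZT18 and 6880 CPM (5570 to 7030, n = 7) at ZT2, and the 12 oligodendrocyte markers a median of 16200 CPM (15400 to 21300) at ZT18 and 12700 CPM (8880 to 23800) at ZT2. With scores of oligodendrocyte, neuron, astrocyte and vessel markers in the model the pair gave 301 genes, 219 higher and 82 lower at ZT18. How much of this difference between times follows run or cell content was not tested further.

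**Figure D2:**
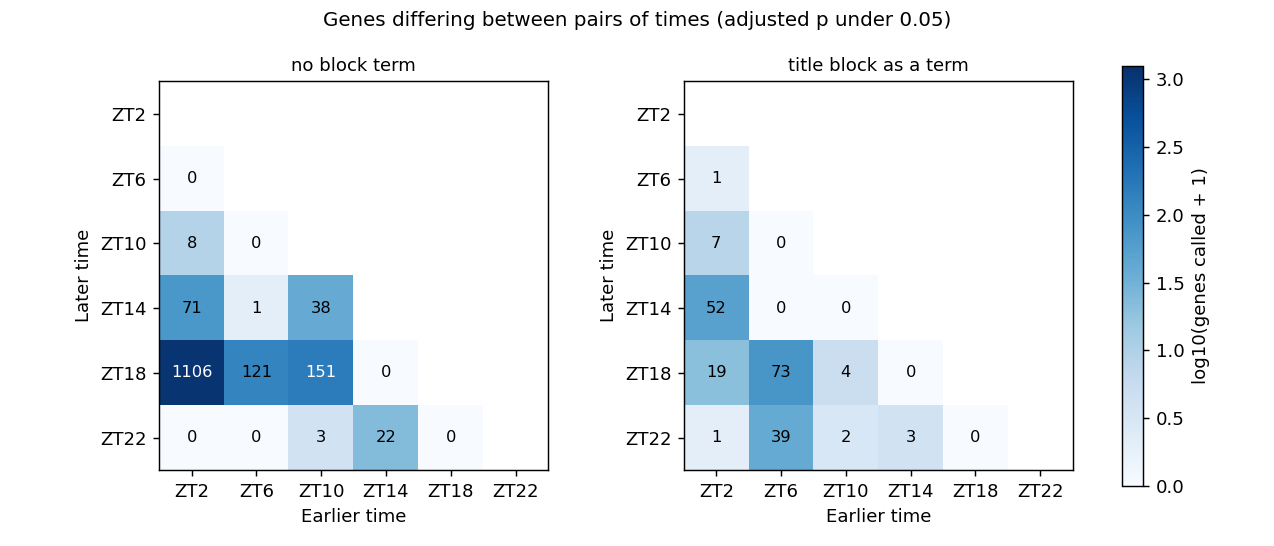
Number of genes differing between each later time (rows) and earlier time (columns) at an adjusted p under 0.05, without (left) and with (right) the title-number run as a term; colour is log10 of the count plus 1. The 1106 genes of ZT18 against ZT2 on the left stand against 19 on the right, while ZT18 against ZT6 holds 121 on the left and 73 on the right.

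Most core clock genes passed the test for a rhythm. Of 20, 12 (60%, against 4.66% of all genes tested) passed the cosine test, and this count was 12 in each of the 34 fits that left out a library. It was 14 with the run as a term and 7 over the 17 summed units. Without ZT18 it was 9 and without ZT2 it was 8. Of the 12 genes, 11 kept the sign of their rhythm within each of the 4 runs and Per3 kept it in 3. By fitted peak, Arntl and Clock came first in the light phase, Nr1d1, Dbp, Ciart, Nr1d2 and Bhlhe41 lay between ZT11.1 and ZT14.3, and Per1, Per3, Per2 and Cry1 lay between ZT15.3 and ZT19.3. The weaker rhythms were the unstable ones. Over the summed units the calls of Clock, Per3, Nr1d2 and Bhlhe41 were among those lost (adjusted p = 0.0921 to 0.416). Per3 also lost its call without ZT2, ZT6 or ZT18, Nr1d2 without ZT2 or ZT14 and Bhlhe41 without ZT2 (adjusted p = 0.0508 to 0.397).

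Arntl, the activator BMAL1, had 36.2 CPM at the lowest, 45.4 at the median and 49.6 at the highest of the ZT2 libraries. Its ZT6 libraries had 28.2, 35.3, 39.8, 43.4 and 48.8 CPM and its ZT10 libraries 26.6, 28.2, 28.6, 29.2 and 35.8 CPM. At night the level was 23.4, 23.8, 24.3, 24.4 and 29.3 CPM at ZT14, 22.6 to 34.3 CPM (median 25.4) at ZT18 and 26 to 34.7 CPM (median 28.5) at ZT22. Every ZT2 library therefore lay above every ZT14, ZT18 and ZT22 library, and the ZT10 libraries overlapped the night. The fitted peak was ZT3.6 (SE 0.45 h), with a peak-to-trough change of 0.84 (SE 0.10, log2) and an adjusted p of 5.07e-06. Clock, its partner, peaked at the same fitted time, ZT3.6 (SE 0.68 h), with a change of 0.43 (SE 0.07, log2, adjusted p = 0.00168), but lost the call without ZT2 (adjusted p = 0.0581) and without ZT18 (adjusted p = 0.0503).

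Nr1d1, the repressor REV-ERB alpha, was lowest around the start of the light phase. Its median was 57.5 CPM at ZT2 (44 to 75.7), and its libraries had 67.4, 77.8, 84.9, 92.2 and 114 CPM at ZT6 and 92.1, 101, 102, 109 and 118 CPM at ZT10. The level was 73, 94.5, 105, 110 and 120 CPM at ZT14, with medians of 64.3 CPM at ZT18 (51.6 to 81.3) and 59.7 CPM at ZT22 (51.8 to 75.4). All ZT10 libraries lay above all ZT2, ZT18 and ZT22 libraries. The fitted peak was ZT11.1 (SE 0.48 h) and the change 0.95 (SE 0.12, log2, adjusted p = 2.44e-05). The difference of Nr1d1 between the phases did not pass the test, with 75 ± 21.1 CPM in the dark and 79.5 ± 24.6 CPM in the light (SD, n = 17 each, adjusted p = 0.557). Nr1d2, which encodes REV-ERB beta, changed by 0.44 (SE 0.10, log2, adjusted p = 0.0161) with a peak at ZT13.9.

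Dbp, a transcription factor that acts on D-box sequences and a classical output of CLOCK and BMAL1, had the smallest adjusted p of the clock genes in both tests (6.7e-05 for time and 5.74e-07 for the cosine). Its libraries had 24.6 to 36.4 CPM (median 33.1) at ZT2 and 34.1, 38.2, 41.9, 46.4 and 76.5 CPM at ZT6. They had 55.3, 59.1, 60.1, 65.6 and 71.6 CPM at ZT10 and 67.2, 68.9, 68.9, 71.3 and 92.3 CPM at ZT14, then 34.7 to 59.4 CPM (median 55.7) at ZT18 and 27.9 to 44.4 CPM (median 34.7) at ZT22. All ZT14 libraries lay above all ZT2, ZT18 and ZT22 libraries. The highest ZT6 value, 76.5 CPM, stood above every ZT10 library and belonged to ZT6 replicate 2. Dbp peaked at ZT12.7 (SE 0.39 h) and changed by 1.22 (SE 0.12, log2), or 2.33-fold. Ciart, a repressor of CLOCK and BMAL1, changed by 1.43 (SE 0.17, log2, adjusted p = 9.74e-06) with a peak at ZT13.3, and Bhlhe41, an E-box repressor, by 0.40 (SE 0.07, log2, adjusted p = 0.00126) with a peak at ZT14.3.

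Per2, a repressor of the loop, had the largest change of the clock genes. It had 71.6 to 257 CPM (median 96.2) at ZT2, 79.5, 80.6, 83.1, 87.3 and 135 CPM at ZT6 and 93.9, 110, 119, 136 and 152 CPM at ZT10. At night it had 183, 205, 283, 315 and 450 CPM at ZT14, 213 to 407 CPM (median 269) at ZT18 and 149 to 325 CPM (median 223) at ZT22. The ZT14 and ZT18 libraries all lay above the ZT6 and ZT10 libraries, while 1 ZT2 library reached the night range. The mean was 271 ± 89 CPM in the dark and 111 ± 43.7 CPM in the light (SD, n = 17 each), a difference of 1.30 (SE 0.16, log2, adjusted p = 1.4e-05). The fitted peak was ZT17.5 (SE 0.43 h) and the change 1.86 (SE 0.21, log2), or 3.64-fold. Per1 changed by 0.93 (SE 0.13, log2, adjusted p = 0.000151) with a peak at ZT15.3 (SE 0.56 h), and Per3 by 0.63 (SE 0.13, log2, adjusted p = 0.0138) with a peak at ZT15.6 (SE 0.81 h). Cry1, which encodes the partner of the PER proteins, followed at ZT19.3 (SE 0.57 h) with a change of 0.99 (SE 0.15, log2, adjusted p = 0.00042). Cry1 averaged 29.8 ± 7.32 CPM in the dark and 18.9 ± 3.99 CPM in the light (SD, n = 17 each).

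The 8 clock genes that missed the cosine threshold were Tef, Hlf, Bhlhe40, Nfil3, Rora, Npas2, Cry2 and Rorb. Tef and Hlf, relatives of Dbp, had changes of 0.36 (SE 0.12, log2, adjusted p = 0.142) and 0.34 (SE 0.11, log2, adjusted p = 0.139) with fitted peaks at ZT14.4 and ZT14.9. Both passed with the run as a term (adjusted p = 0.00536 for Tef and 0.0499 for Hlf) and with marker scores in the model (0.000403 and 0.00222). Cry2, a repressor like Cry1, had a change of 0.08 (SE 0.07, log2, adjusted p = 0.688).

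**Figure D3:**
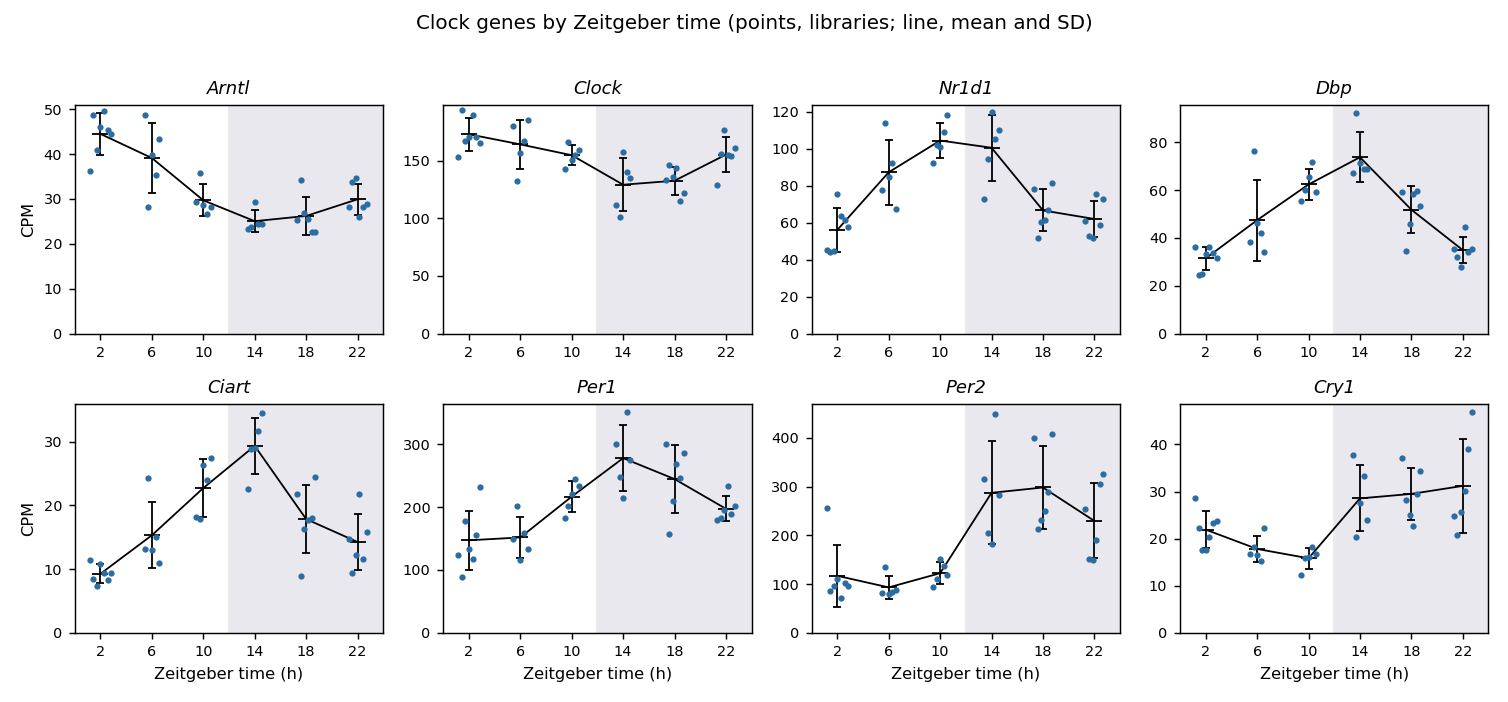
CPM of 8 clock genes (y axes, starting at 0) by Zeitgeber time (x axes, h); points are the 34 libraries, lines join the means and bars are SD, and shading marks ZT12 to ZT24. Arntl and Clock are highest at ZT2, Nr1d1 at ZT10, Dbp, Ciart and Per1 at ZT14, and Per2 at ZT18.

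Each library's clock time was read from cosines of 12 listed clock genes, fitted to the other libraries, and set against its label, as a description. The list holds Npas2 and Tef, which were not rhythmic, and leaves out Clock. The median size of the difference was 1.35 h, 29 of 34 libraries lay within 3 h, and 0 lay 6 h or more away. The largest differences were 5.5 h later than the label for ZT18 replicate 2, 4.4 h later for ZT6 replicate 2 and 4.2 h earlier for ZT22 replicate 4. Without these 3 libraries, a setting chosen after seeing the data, 12 clock genes were still past the threshold, 572 genes were rhythmic, 613 differed between phases and 143 differed among the 6 times.

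RefSeq promoter windows, 250 bases before to 50 after a gene's start on the GRCr8 build, were matched by gene ID for 11082 of the genes tested and for 525 of the 661 rhythmic genes. They were searched on both strands. The E-box CACGTG was in 3 of the 10 rhythmic clock genes with a window, against 10.5% of rhythmic genes, 9.75% of genes tested and 7.08% of all 27457 genes in the table. It was in 5 of all 17 clock genes with a window (29.4%), among them Bhlhe40 and Tef, which were not rhythmic. The windows of Per1, Per2, Per3 and Dbp held no E-box. The windows of the rhythmic clock genes that held an E-box are shown, with the E-boxes in capitals. Ciart held 3 of them, and for Nr1d1 the E-box lay in the second of its 2 windows.
Ciart, GRCr8 chr2:186112197-186112496, minus strand: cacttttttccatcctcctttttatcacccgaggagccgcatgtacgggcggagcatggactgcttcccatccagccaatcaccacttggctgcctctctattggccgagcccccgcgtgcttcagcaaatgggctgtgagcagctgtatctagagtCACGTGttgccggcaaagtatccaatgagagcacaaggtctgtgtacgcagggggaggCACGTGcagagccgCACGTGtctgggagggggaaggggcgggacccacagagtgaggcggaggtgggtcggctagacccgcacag
Nr1d1, second start, GRCr8 chr10:84229405-84229704, minus strand: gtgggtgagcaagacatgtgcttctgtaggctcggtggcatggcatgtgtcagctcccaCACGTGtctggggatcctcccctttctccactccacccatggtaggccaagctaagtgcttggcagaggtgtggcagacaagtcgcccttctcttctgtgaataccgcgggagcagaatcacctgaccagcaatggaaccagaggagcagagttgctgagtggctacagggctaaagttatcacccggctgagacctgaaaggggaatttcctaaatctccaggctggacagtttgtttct
Bhlhe41, GRCr8 chr4:180569306-180569605, minus strand: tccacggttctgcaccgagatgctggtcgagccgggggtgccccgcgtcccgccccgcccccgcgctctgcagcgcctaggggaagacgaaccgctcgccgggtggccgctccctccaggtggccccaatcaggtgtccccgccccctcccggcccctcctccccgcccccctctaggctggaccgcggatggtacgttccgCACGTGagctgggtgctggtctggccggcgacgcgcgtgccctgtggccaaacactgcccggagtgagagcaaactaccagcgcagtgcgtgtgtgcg

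The D-box TTATGNAA, found in 3.86% of all genes with a window, occurred in 1 rhythmic clock gene, Per2. The ROR element TAGGTCA, to which REV-ERB and ROR proteins bind, was found in 2.83% of all genes with a window. It occurred in 1 rhythmic clock gene, Arntl, from 16 to 10 bases before the start. These 2 windows are shown because Per2 and Arntl had the largest excess in the dark and in the light among the clock genes, with the match in capitals.
Per2, GRCr8 chr9:99496944-99497243, minus strand: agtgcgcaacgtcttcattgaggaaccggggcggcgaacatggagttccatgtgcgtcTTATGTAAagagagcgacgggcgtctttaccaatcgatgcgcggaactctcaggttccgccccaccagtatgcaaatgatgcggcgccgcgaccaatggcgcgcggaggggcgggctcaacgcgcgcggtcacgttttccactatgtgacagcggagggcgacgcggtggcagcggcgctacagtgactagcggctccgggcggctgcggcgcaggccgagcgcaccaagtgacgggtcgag
Arntl, GRCr8 chr1:176766078-176766377, plus strand: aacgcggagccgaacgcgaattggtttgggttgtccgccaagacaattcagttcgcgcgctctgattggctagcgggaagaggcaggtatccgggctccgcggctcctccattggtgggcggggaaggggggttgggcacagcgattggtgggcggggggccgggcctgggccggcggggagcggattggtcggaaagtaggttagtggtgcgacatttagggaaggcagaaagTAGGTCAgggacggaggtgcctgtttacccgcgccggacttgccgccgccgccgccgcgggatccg

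The cyclic AMP response element TGACGTCA was in 14 of 291 windows (4.81%) of rhythmic genes that peaked in the dark and in 1 of 234 (0.427%) of those that peaked in the light, against 3.24% of genes tested. These counts are descriptions, and a match of letters is not a binding site.

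Outside the core clock, the 12 genes with the largest rhythms, by a rule on level and on both tests, were Gpd1, Gpatch4, Pex11a, Cryab, Sgk1, Zbtb16, Ankub1, Dnase1l2, Efcc1, Smpdl3b, Htra1 and Rab7b. All but Rab7b had fitted peaks between ZT16.2 and ZT18.2, and Rab7b, a small GTPase of endosomes, peaked at ZT9.6. Their changes ran from 0.88 to 1.58 on the log2 scale. The sign of the rhythm was the same in each of the 4 runs for 19 of the 20 named genes outside the clock. Efcc1 was the exception with 3 runs. As these genes were chosen in the same libraries, this is a description.

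Gpd1 encodes a cytosolic glycerol-3-phosphate dehydrogenase and is known in rodent brain for its induction by glucocorticoids. It had 49 to 164 CPM (median 66.7) at ZT2, 56.6, 67.1, 77, 82.4 and 89.3 CPM at ZT6, and 78.5, 95.2, 130, 140 and 173 CPM at ZT10. At night it had 98.1, 127, 165, 192 and 199 CPM at ZT14, 123 to 360 CPM (median 202) at ZT18 and 86.9 to 182 CPM (median 149) at ZT22. The ZT18 libraries all lay above the ZT6 libraries, and 6 of the 7 ZT2 libraries lay below every ZT14 library. The change was 1.58 (SE 0.22, log2), or 2.98-fold, with a peak at ZT16.8 (SE 0.53 h, adjusted p = 0.000114). Gpatch4 and the peroxisome division gene Pex11a peaked at ZT16.6 with changes of 1.52 (SE 0.21, adjusted p = 0.000128) and 1.42 (SE 0.18, adjusted p = 2.47e-05). Cryab, which encodes the small heat shock protein alpha-B-crystallin, changed by 1.27 (SE 0.20, log2, adjusted p = 0.000469) with a peak at ZT18.2, and lost the call without ZT18 (adjusted p = 0.106) and over the 17 summed units (adjusted p = 0.0886). Ankub1, Efcc1, Htra1 and Rab7b also lost it without ZT18, with adjusted p from 0.072 to 0.356, and Efcc1, Htra1 and Rab7b over the summed units (adjusted p = 0.142 to 0.186). Rab7b further lost it without ZT10 (adjusted p = 0.213), without ZT10 replicate 1 (0.0565) and without the 3 libraries far from their label (0.0504).

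The 8 genes with the largest excess in the dark were Per2, Gpd1, Gpatch4, Cryab, Pex11a, Zbtb16, Dnase1l2 and Eomes. The difference of Gpatch4 missed the threshold without ZT18 (adjusted p = 0.0582), and that of Cryab over the 17 summed units (adjusted p = 0.081). Dnase1l2, a member of the DNase I family, averaged 18.5 ± 4.51 CPM in the dark and 10.7 ± 2.13 CPM in the light (SD, n = 17 each), a difference of 0.78 (SE 0.11, log2, adjusted p = 0.000132). Eomes, a T-box transcription factor, averaged 15.8 ± 5.97 CPM in the dark and 10.3 ± 5.83 CPM in the light, and its call (adjusted p = 0.0279) was lost over the 17 summed units, without ZT6, ZT10, ZT14 or ZT18 (adjusted p = 0.12 to 0.331) and without any 1 of ZT6 replicate 1, ZT14 replicate 1, ZT18 replicate 1 and ZT22 replicate 6 (adjusted p = 0.0505 to 0.0625).

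The 8 genes most reduced in the dark were Tp53i11, Adamts18, Adamts2, Ngfr, Slc38a8, Arntl, Spon2 and Cdh15, with fitted peaks between ZT3.6 and ZT7.1. Their differences were alike in size, from -0.49 to -0.43 on the log2 scale, and each was lower in the dark in all 4 runs. Run 3, with 2 dark and 7 light libraries, gave only -0.06 for Adamts18 and Cdh15, -0.07 for Arntl and -0.08 for Adamts2. There Tp53i11, Slc38a8, Spon2 and Ngfr gave -0.26, -0.32, -0.39 and -0.45, and in run 2 Spon2 gave -0.1. The genes were chosen in these same libraries, so their signs by run are a description. Over the 17 summed units Adamts18, Adamts2, Ngfr, Slc38a8, Arntl and Spon2 missed the threshold (adjusted p = 0.0794 to 0.26), as did Adamts2 without ZT18 (adjusted p = 0.0627) and Slc38a8 without ZT10 (adjusted p = 0.0515) and in FPKM with a pseudocount of 0.1 (adjusted p = 0.0568). Cdh15, which encodes M-cadherin, had 201 to 284 CPM (median 263) at ZT2, 244, 290, 294, 309 and 313 CPM at ZT6 and 237, 277, 290, 291 and 321 CPM at ZT10. At night it had 168, 182, 195, 200 and 246 CPM at ZT14, 179 to 241 CPM (median 200) at ZT18 and 167 to 272 CPM (median 223) at ZT22. The ZT6 and ZT18 libraries did not overlap, and the other light and dark times did in part. Its mean was 206 ± 30.9 CPM in the dark and 276 ± 30 CPM in the light (SD, n = 17 each, adjusted p = 0.000132). The summed granule neuron markers averaged 5910 ± 970 CPM in the dark and 6390 ± 732 CPM in the light, and their part in this result was not tested. Adamts18 and Adamts2 encode extracellular metalloproteases and Ngfr the neurotrophin receptor p75. Adamts18 averaged 27.3 ± 5.25 CPM in the dark and 38 ± 5.54 CPM in the light (adjusted p = 0.000246).

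Of genes known to be induced by glucocorticoids, several peaked at night. Of 17 tested members of a list of 21, 8 were rhythmic (against 4.66% of all genes), all 8 with peaks in the dark, and 5 were higher and 0 lower in the dark (against 2.65% and 2.21%). The list's median change was 0.43 on the log2 scale, against 0.19 over all genes, and the rhythmic members were Zbtb16, Sgk1, Pdk4, Fkbp5, Tsc22d3, Gpt2, Errfi1 and Arrdc2. The count of rhythmic members was 6 with the run as a term, 2 over the 17 summed units, 2 without ZT18 and 2 without ZT2. It fell to 4 without ZT18 replicate 1 and to 5 without any 1 of ZT2 replicate 4, ZT18 replicate 3 and ZT18 replicate 6. The promoter windows were also searched for AGAACA, a part of the glucocorticoid receptor site. This motif was in 1 of 16 list members with a window (6.25%) and in 0 of 7 rhythmic members with a window. The share was 13.6% of genes tested and 21.6% of all genes with a window. Whether these shares differ was not tested.

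Zbtb16, a zinc finger transcription factor, had 12 to 34.4 CPM (median 19.8) at ZT2, 16.1, 16.8, 18, 20.9 and 22.1 CPM at ZT6 and 19.7, 21.4, 25.7, 28.2 and 30.6 CPM at ZT10. After ZT12 the level was 19.6, 25.6, 38.9, 42.7 and 43.6 CPM at ZT14, 29.4 to 73.2 CPM (median 41.5) at ZT18 and 21.3 to 38.3 CPM (median 31.2) at ZT22. The ZT6 and ZT18 libraries did not overlap. It changed by 1.26 (SE 0.18, log2, adjusted p = 0.000139) with a peak at ZT17.3 (SE 0.55 h). Sgk1, the serum- and glucocorticoid-regulated kinase, changed by 1.27 (SE 0.22, log2, adjusted p = 0.00162) with a peak at ZT16.2, and lost the call without ZT2 (adjusted p = 0.073). Pdk4, a kinase that inhibits pyruvate dehydrogenase, was scarce, with 2.57 ± 1.24 CPM in the dark and 1.25 ± 0.796 CPM in the light (SD, n = 17 each, adjusted p = 0.00487). Fkbp5, a co-chaperone of the glucocorticoid receptor, changed by 0.49 (SE 0.09, log2, adjusted p = 0.0033) with a peak at ZT16.9. Nr3c1, the gene of the receptor, had a change of 0.19 (SE 0.08, log2, adjusted p = 0.245).

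Several heat shock chaperones were higher in the dark. Of 21 tested members of 23 listed, 7 were rhythmic with peaks in the dark (against 4.66% of all genes), and 10 were higher and 0 lower in the dark (against 2.65% and 2.21%). The list is mostly cytosolic and also holds the mitochondrial Hspd1 and Hspe1 and the transcription factors Hsf1 and Hsf2. The 7 rhythmic were 4 in FPKM, 4 without ZT2, 4 without ZT10, 1 without ZT18 and 0 over the 17 summed units. The list's median difference, dark minus light, was 0.29 on the log2 scale, against -0.001 over all genes tested. The 10 were Ahsa1, Stip1, Hsp90ab1, Fkbp4, Hsph1, Dnaja1, Chordc1, Hspa8, Dnaja4 and Cacybp. The count of 10 was 8 with the run as a term and 10 without the 3 libraries far from their label, but 3 without ZT18, 2 without ZT10 and 0 over the 17 summed units. The list's median difference was 0.245 without ZT18, 0.226 without ZT10 and 0.296 over the summed units. Hspa1a and Hspa1b, the inducible HSP70 genes, were not tested.

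Hsp90ab1, the constitutive cytosolic HSP90, had 333 to 451 CPM (median 385) at ZT2, 305, 309, 369, 389 and 412 CPM at ZT6 and 271, 289, 319, 328 and 341 CPM at ZT10. During the dark phase it had 323, 377, 409, 524 and 622 CPM at ZT14, 436 to 556 CPM (median 485) at ZT18 and 349 to 438 CPM (median 412) at ZT22. Every ZT18 library lay above every ZT6 and ZT10 library. The mean was 447 ± 76.5 CPM in the dark and 358 ± 51.6 CPM in the light (SD, n = 17 each), a difference of 0.34 (SE 0.07, log2, adjusted p = 0.00191). Ahsa1, an activator of the HSP90 ATPase, had 51 ± 8.54 CPM in the dark and 38.9 ± 3.8 CPM in the light, a difference of 0.40 (SE 0.06, log2, adjusted p = 0.000235). Hsph1, which encodes HSP110, had 61.8 ± 19.8 CPM in the dark and 45.5 ± 6 CPM in the light, a difference of 0.47 (SE 0.10, log2, adjusted p = 0.00572).

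Heat shock factors bind repeats of a short unit, and the core GAANNTTC was searched for in the promoter windows. It was in 11 of 18 genes of this list with a window (61.1%) and in 4 of the 7 rhythmic members. The share was 6.24% of genes tested and 9.09% of all genes with a window. The windows of Hspd1 and Hspe1 overlap on opposite strands, and 1 match counts for both genes. Windows of 2 rhythmic members that hold it, Hsph1 and Dnaja1, are shown with the core in capitals.
Hsph1, GRCr8 chr12:10427118-10427417, plus strand: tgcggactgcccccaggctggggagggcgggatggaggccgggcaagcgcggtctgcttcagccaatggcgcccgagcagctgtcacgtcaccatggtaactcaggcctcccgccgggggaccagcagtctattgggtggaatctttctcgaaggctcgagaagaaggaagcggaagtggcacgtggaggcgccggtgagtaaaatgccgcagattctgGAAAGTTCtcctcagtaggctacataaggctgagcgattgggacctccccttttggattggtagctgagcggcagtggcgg
Dnaja1, GRCr8 chr5:60638154-60638453, plus strand: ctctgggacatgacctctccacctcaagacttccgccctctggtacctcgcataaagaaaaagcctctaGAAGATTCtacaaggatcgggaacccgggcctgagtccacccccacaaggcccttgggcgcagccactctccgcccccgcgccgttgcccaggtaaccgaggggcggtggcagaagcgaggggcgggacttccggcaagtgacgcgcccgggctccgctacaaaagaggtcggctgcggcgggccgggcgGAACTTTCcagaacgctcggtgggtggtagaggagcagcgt

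Some chaperones of the endoplasmic reticulum (ER) and genes of the unfolded protein response were also higher in the dark. Of 18 tested, 7 were rhythmic, with peaks between ZT18 and ZT20.8 (the 7 cytosolic genes peaked between ZT16.5 and ZT19.1), and 8 were higher and 0 lower in the dark (against 4.66%, 2.65% and 2.21% of all genes). The 7 rhythmic were 3 in FPKM, 2 without ZT10, 2 without ZT18 and 0 over the 17 summed units. Hspa5, the ER chaperone BiP, had 304 to 556 CPM (median 318) at ZT2, 252, 268, 274, 294 and 304 CPM at ZT6 and 260, 262, 281, 289 and 294 CPM at ZT10. In the dark the values were 267, 346, 443, 525 and 538 CPM at ZT14, 318 to 458 CPM (median 398) at ZT18 and 310 to 499 CPM (median 391) at ZT22. Every ZT18 and ZT22 library lay above every ZT6 and ZT10 library, whereas ZT2 overlapped the night. The mean was 407 ± 85.3 CPM in the dark and 308 ± 68.4 CPM in the light (SD, n = 17 each), a difference of 0.44 (SE 0.09, log2, adjusted p = 0.00418). Hsp90b1, the ER form of HSP90, changed by 0.47 (SE 0.08, log2, adjusted p = 0.00107) with a peak at ZT20.6, and Xbp1, a transcription factor of the unfolded protein response, by 0.60 (SE 0.13, log2, adjusted p = 0.0129) with a peak at ZT18.9. The count of 8 was less firm than that of the cytosolic list. It was 11 without the 3 libraries far from their label, 3 with the run as a term, 3 without ZT6, 2 without ZT18, 1 without ZT10 and 0 over the 17 summed units, and 14 of the 34 libraries each lowered it to 4 or 5 when left out: ZT2 replicates 4, 5 and 6, ZT6 replicate 4, ZT10 replicates 2, 4 and 5, ZT14 replicates 1, 2 and 4, ZT18 replicate 5 and ZT22 replicates 1, 5 and 6.

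The cold-inducible RNA-binding protein genes ran opposite to the chaperones. Rbm3 had 150 to 221 CPM (median 191) at ZT2, 167, 191, 218, 228 and 245 CPM at ZT6 and 193, 215, 224, 225 and 226 CPM at ZT10. The night libraries had 125, 167, 172, 196 and 212 CPM at ZT14, 131 to 181 CPM (median 154) at ZT18 and 126 to 200 CPM (median 171) at ZT22. Every ZT10 library lay above every ZT18 library, and the other times overlapped. Rbm3 fell to 167 ± 26.3 CPM in the dark, against 205 ± 24.6 CPM in the light (SD, n = 17 each), a difference of -0.31 (SE 0.07, log2, adjusted p = 0.00696), and peaked at ZT7 (SE 0.77 h). Cirbp fell to 250 ± 29.3 CPM in the dark, against 290 ± 40 CPM in the light, a difference of -0.23 (SE 0.06, log2, adjusted p = 0.0175). Both calls were kept in each of the 34 fits that left out a library and with the run as a term, and both were lost without ZT18, without ZT10 and over the 17 summed units. Without ZT6 and without ZT14, 1 of the 2 was kept. Their median difference was -0.261 without ZT18, -0.223 without ZT10 and -0.27 over the summed units, against -0.269 in the reported fit. Of 15 SR splicing factors and CLK kinases 2 were higher in the dark (against 2.65% of all genes), with a list median of 0.04 on the log2 scale, and 0 were without ZT18 or over the 17 summed units. Clk1, a kinase of splicing factors known to respond to temperature, rose in the dark to 755 ± 78.5 CPM, against 630 ± 79.3 CPM in the light (adjusted p = 0.00358), as did the splicing factor Tra2a, with 675 ± 75.8 CPM in the dark and 579 ± 59.9 CPM in the light (adjusted p = 0.0116).

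**Figure D4:**
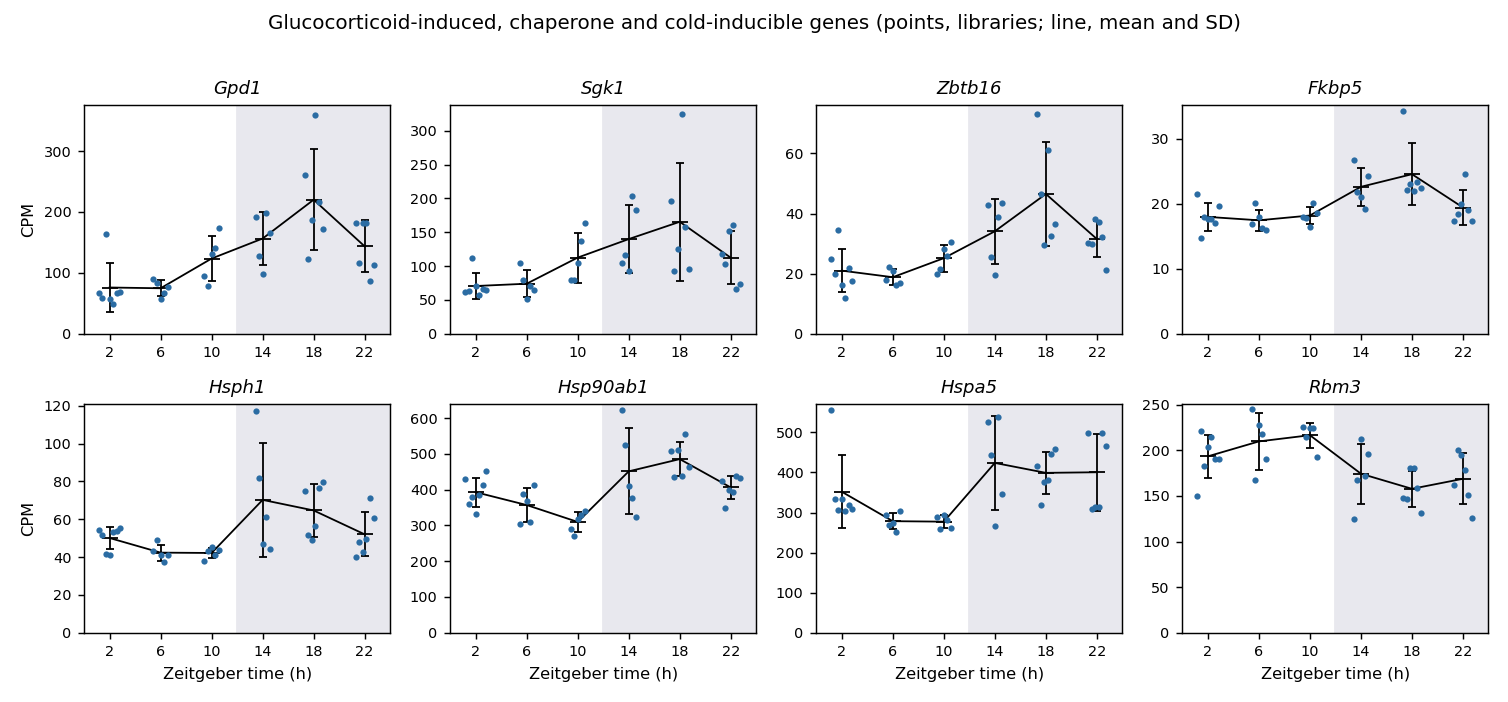
CPM of Gpd1, 3 other genes known to be glucocorticoid-induced, 3 chaperone genes and the cold-inducible Rbm3 (y axes, starting at 0) by Zeitgeber time (x axes, h); points are the 34 libraries, lines join the means and bars are SD, and shading marks ZT12 to ZT24. Gpd1, Sgk1, Zbtb16 and Fkbp5 are highest at ZT18, the chaperones are higher in the dark than at ZT6 and ZT10, and Rbm3 is highest at ZT10.

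**Figure D5:**
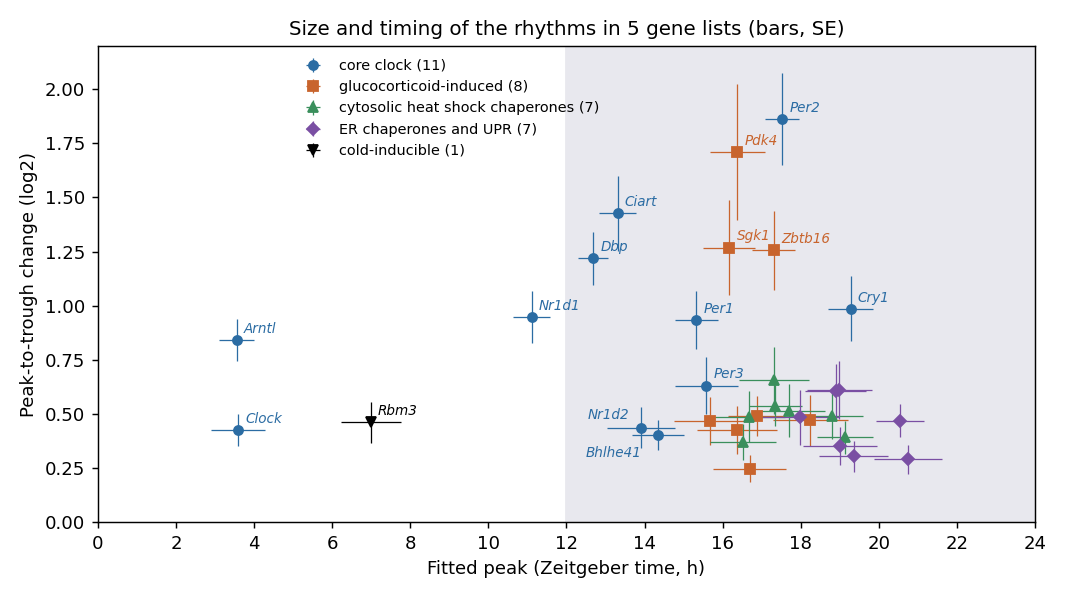
Peak-to-trough change (y axis, log2) against fitted peak time (x axis, Zeitgeber time in h) for rhythmic members of 5 gene lists, with bars of 1 SE; numbers in the legend count the members plotted and shading marks ZT12 to ZT24. Of the clock genes plotted, Arntl and Clock lie early in the light phase, Nr1d1 late in it and the others in the dark phase. The 8 glucocorticoid-induced, 7 cytosolic and 7 ER chaperone genes all lie in the shaded dark phase.

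Of 22 homeostatic microglia genes, 0 were rhythmic and 0 differed between phases in edgeR, from which little can be read in a list of this size against 4.66% and 4.86% of all genes. In edgeR 2 had an unadjusted cosine p under 0.05. DESeq2 called 1 as rhythmic, limma with voom weights 0, the model with marker scores 2 and the model of all 200 libraries 3, and in edgeR leaving out ZT14 replicate 3 gave 2 and leaving out ZT2 replicate 3, ZT14 replicate 4 or ZT22 replicate 1 gave 1. Cx3cr1 had 62.8 ± 15.1 CPM in the dark and 68.9 ± 17.5 CPM in the light (SD, n = 17 each), and P2ry12, a purinergic receptor, 80.4 ± 18.1 CPM in the dark and 77 ± 15.5 CPM in the light. Tmem119, a membrane protein gene of microglia, had 53.2 ± 15.8 CPM in the dark and 44.1 ± 10.9 CPM in the light (adjusted p = 0.265). A p that misses the threshold does not show that these genes were constant.

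For most immune lists the counts of rhythmic genes lay near the 4.66% of all genes and set the lists apart in neither direction. The median dark minus light difference was -0.246 (log2) for MHC class II genes, with 0 called in either direction. For interferon genes it was -0.189, with 1 called higher and 0 lower in the dark. The NF-kB and toll-like receptor medians were -0.015 and -0.021, against -0.001 over all genes. Whether these list medians differ from those of other genes was not tested. In edgeR 0 of 17 genes of NF-kB and cytokine signalling, 0 of 11 toll-like receptor genes and 0 of 11 MHC class II genes were rhythmic, with 2, 0 and 0 at an unadjusted p under 0.05 and 0 in each list by DESeq2. Of 16 interferon response genes, 2 (12.5%) were rhythmic. Irf9, a subunit of the interferon-stimulated gene factor, averaged 38.1 ± 4.22 CPM in the dark and 32.9 ± 2.64 CPM in the light (adjusted p = 0.0103), and Irf7, a regulator of interferon genes, changed by 1.42 (SE 0.34, log2, adjusted p = 0.0236) with a peak at ZT8.8. Itgax, which encodes CD11c, was the 1 rhythmic member of 19 genes of disease-associated microglia, with a change of 1.04 (SE 0.26, log2, adjusted p = 0.0333) and a peak at ZT7.7. Of 24 immediate early genes 1 was rhythmic, Klf4, with a change of 0.93 (SE 0.24, log2, adjusted p = 0.0405) and a peak at ZT8. With the run as a term 0 genes of disease-associated microglia and 0 immediate early genes were rhythmic, while 2 of the interferon list were. Over the 17 summed units and without ZT18 each of these lists held 0. The interferon list, whose median level was 3.38 CPM, also held 0 without ZT2 and in FPKM with a pseudocount of 0.1.

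Metabolic lists held 0 to 2 rhythmic members each, shares of which little can be read against 4.66% of all genes, and the members are given as single genes. Tfeb, the master regulator of lysosome genes, was the 1 rhythmic gene of 31 of phagosome and lysosome, with 45.4 ± 10.3 CPM in the dark and 34.4 ± 5.81 CPM in the light (SD, n = 17 each, adjusted p = 0.0103). Acly, which makes cytosolic acetyl-CoA for lipid synthesis, was the 1 of 13 fatty acid synthesis genes, with 106 ± 15.1 CPM in the dark and 90.3 ± 13.1 CPM in the light (adjusted p = 0.0318). Of 23 cholesterol synthesis genes 2 were rhythmic with opposite timing: Tm7sf2, a sterol reductase gene, peaked at ZT16.8 and Stard4, a sterol carrier gene, at ZT7.3. Slc7a5, a large neutral amino acid transporter, was the 1 of 15 ATF4 targets and averaged 59.5 ± 9.05 CPM in the dark and 69.7 ± 7.55 CPM in the light (adjusted p = 0.0187). Igf1r was the 1 of 18 insulin and FOXO genes, with a peak at ZT22.9. In edgeR 0 of 18 NRF2 and antioxidant genes, 0 of 8 LXR and efflux genes and 0 of 75 cytosolic ribosomal protein genes were rhythmic, with 2, 1 and 6 at an unadjusted p under 0.05 and 1, 0 and 0 by DESeq2. With the run as a term 0 members of the lysosome, cholesterol and ATF4 lists were rhythmic, and 1 each of the fatty acid synthesis and insulin lists. Over the 17 summed units and without ZT18 each of these lists held 0.

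Markers of other cell types were mostly without a rhythm call. Of the 13 marker lists, those of mural cells and border macrophages each held 1 rhythmic gene, Myh11 and Cd163, and the others 0 in edgeR, against 4.66% of all genes. An unadjusted cosine p under 0.05 was found for 4 of 7 granule neuron, 3 of 6 mural cell, 3 of 7 oligodendrocyte precursor and 2 of 4 border macrophage markers. It was found for 4 of 15 neuron, 3 of 12 oligodendrocyte, 2 of 14 astrocyte, 0 of 10 endothelial and 0 of 11 T and NK cell markers, against 3081 of 14176 genes. Lists this small do not show that cell content was constant over the day. The neutrophil marker S100a8 passed the test for time (adjusted p = 0.0282), and the list's 3 tested markers all had an unadjusted cosine p under 0.05 with a median dark minus light difference of 0.77 (log2). The Purkinje cell marker Ppp1r17 was higher in the dark by 0.38 (SE 0.11, log2, adjusted p = 0.0425). Cd163, a scavenger receptor, changed by 1.57 (SE 0.25, log2, adjusted p = 0.000461) with a peak at ZT15.4 at a low level, 4.64 ± 1.88 CPM in the dark and 2.84 ± 1.54 CPM in the light (SD, n = 17 each). The summed level of 12 oligodendrocyte markers was 15900 ± 2600 CPM in the dark and 14800 ± 3790 CPM in the light, that of 15 neuron markers 6530 ± 497 CPM in the dark and 6750 ± 586 CPM in the light, and that of 22 homeostatic microglia genes 2710 ± 864 CPM in the dark and 2540 ± 593 CPM in the light. Erythrocyte markers varied most, from 124 to 3210 CPM, with 716 ± 745 CPM in the dark and 437 ± 384 CPM in the light. With 4 marker scores in the model 14 clock genes and 11 glucocorticoid-induced genes were rhythmic, against 12 and 8 in the reported fit. In that model 11 genes of the cytosolic and 5 of the ER chaperone list were higher in the dark, against 10 and 8. Over all genes tested the model called 951 rhythmic, against 661, and 732 higher in the dark, against 376.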

How the data were processed

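Messenger RNA of 200 libraries, 34 of them chow ad libitum, was sequenced on DNA nanoballs after strand-specific library preparation, per the labels' protocols. The submitters' processing notes name the build Rnor_6.0. The aligner was not given in the sources used here, nor was the counter. In one table the authors deposited expected counts per gene (estimated counts, not normalised, 7.98% of entries not whole in these 34 libraries), where raw counts had been foreseen, and a table of FPKM values per gene, normalised by length and depth by the authors, used for marker levels and as an alternative.

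Expected counts were rounded. Genes with a mean of at least 1 CPM (14176 of 20361) were scaled by TMM and tested with the quasi-likelihood F test of edgeR 4.0.16 in R 4.3.3, within the 34 libraries, with Benjamini-Hochberg adjustment over all genes and a threshold of 0.05. The designs were the 6 times, a 24 h cosine and sine, the departure from it, dark minus light, and 15 pairs of times. Peak-to-trough changes and peak times come from the cosine coefficients, with Wald standard errors (SE). SD is the spread between libraries. Printed CPM are of the TMM-scaled library. The tests were run on simulated counts drawn independently for each gene and library. That simulation held no differences of run or cell content, so it does not show how the tests behave where these are present. Clock times used log2 CPM with a prior count of 2. Library totals ran from 5.05 M to 10.16 M counts, so genes near 1 CPM rest on few counts. Among 81 pairs of libraries of the same time the lowest chi-square over its degrees of freedom was 2.67, and none was treated as a duplicate. Replicate numbers follow accession order and pair nothing.

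Named genes were the 20 core clock genes, of which 1 is counted but not reported here, the 12 others with the largest change among those past both the time and the cosine test with at least 5 CPM and a gene symbol, the 8 largest dark-minus-light differences each way, and up to 4 members per list by the smallest p for time. Other list members named were chosen after their values were seen. The gene lists and the libraries described were chosen with earlier results of these data known, so the lists' counts are not independent support. Reads shared between near-identical gene copies are divided by the counting in a way not given here. Promoters are RefSeq windows on GRCr8. DESeq2, limma 3.58.1 with voom weights, other scalings and filters, run and marker terms, the 200-library fit and omission of libraries or times were alternatives.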

Additional observations from a re-analysis of the deposited data

Results flagged for a closer look

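Within each time, a library was singled out when its gap to the nearest other was a large part of the group's range on a log scale (Dixon's 95% criterion). Of 318 groups tested, 22 (6.92%) held such a library, where chance gives about 1 in 20. No explanation was tested for any of them.

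Clock genes with a library standing high were Per2 in ZT2 replicate 1 (257 CPM, the others 71.6 to 110), Per2 in ZT6 replicate 2 (135 CPM, the others 79.5 to 87.3), Arntl in ZT14 replicate 3 (29.3 CPM, the others 23.4 to 24.4), Rora in ZT6 replicate 5 (37.9 CPM, the others 22.6 to 25.4) and Dbp in ZT14 replicate 2 (92.3 CPM, the others 67.2 to 71.3). Those with a library standing low were Npas2 in ZT18 replicate 4 (22.4 CPM, the others 29.3 to 33.3), Per3 in ZT22 replicate 4 (213 CPM, the others 247 to 263), Tef in ZT18 replicate 2 (166 CPM, the others 206 to 229), Hlf in ZT10 replicate 1 (17.3 CPM, the others 25.1 to 28.9) and Bhlhe40 in ZT6 replicate 1 (13.9 CPM, the others 18.9 to 20.9). ZT6 replicate 2, ZT18 replicate 2 and ZT22 replicate 4 are also libraries whose clock time lay over 4 h from the label. That clock time was itself read from the levels of listed clock genes, Tef among them. The overlap therefore cannot be taken as a separate sign about these libraries.

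Other named genes standing high were Gpd1 in ZT2 replicate 3 (164 CPM, the others 49 to 67.7), Pex11a in ZT2 replicate 3 (88.5 CPM, the others 31.4 to 43.9) and Sgk1 in ZT2 replicate 3 (112 CPM, the others 57 to 70.3). All 3 are genes of 1 library, ZT2 replicate 3, without which 1028 genes differed among times. Other named genes standing low were Gpatch4 in ZT10 replicate 2 (70.6 CPM, the others 122 to 132), Cryab in ZT6 replicate 1 (7.4 CPM, the others 12.1 to 14.4) and Cdh15 in ZT2 replicate 1 (201 CPM, the others 258 to 284).

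Marker sums that stood apart within their time were the summed oligodendrocyte markers in ZT18 replicate 4 (21300 CPM, the others 15400 to 17200), the summed mural cell markers in ZT10 replicate 5 (25.2 CPM, the others 49.5 to 54.7), the summed erythrocyte markers in ZT10 replicate 4 (146 CPM, the others 286 to 371), the summed neutrophil markers in ZT6 replicate 5 (17.8 CPM, the others 29.9 to 35.4), the summed homeostatic microglia markers in ZT10 replicate 1 (3910 CPM, the others 2150 to 2370) and the summed homeostatic microglia markers in ZT18 replicate 5 (3750 CPM, the others 2540 to 2920).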

How the results depend on the processing

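No paired analysis was possible because the labels give no replicate numbers that pair libraries across times. The counts below are genes past an adjusted p of 0.05, where the reported counts were 383 for any difference among times, 661 for the 24 h rhythm, 0 for departure from the cosine, 689 for dark minus light and 1229 for any pair of times. DESeq2 gave 1284 for time, 1028 for the rhythm and 2046 for pairs. With the title-number run as a term time gave 120 and pairs 140. Over 17 units of time and run the counts were 0 for time, 51 for the rhythm and 26 for dark minus light. With marker scores they were 700 for time, 1 for departure and 1345 for dark minus light. Fitting all 200 libraries gave 2936 for time, 2236 for the rhythm, 142 for departure and 1392 for dark minus light.

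Leaving out a time gave, without ZT2, 162 for time and 224 for the rhythm, without ZT6, 396 for dark minus light, without ZT10, 168 for time and 283 for dark minus light, without ZT14, 689 for time, without ZT18, 18 for time, 79 for the rhythm and 106 for dark minus light, and without ZT22, 1199 for dark minus light. Without the 3 libraries 4 h or more from their label, chosen after seeing the data, time gave 143. Leaving out each library in turn gave 145 to 1028 for time, 383 to 1356 for the rhythm, 0 to 0 for departure and 464 to 1025 for dark minus light. The cause of these movements was not tested. Apart from pairs, these counts stayed within 1.5-fold of those reported with RLE scaling, voom, other low-count filters or FPKM (pseudocount 0.1 or 1). The count for pairs was 1218 with RLE scaling, 1220 with edgeR's own filter and 1413 at a mean of 5 CPM or more. Pairs were not run with voom, without a filter or in FPKM. No result changed direction in these settings. Of the settings for named genes that left out no single library, 717 kept and 43 lost the call of the 40 called measures, while of the 8 measures with no call 147 stayed without one and 5 gained it. Of those that left one out, 1355 kept and 5 lost a call, and 272 stayed without one. No library lay 6 h or more from its label, so that omission gave no value.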

Other observations

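Among the rhythmic genes 3 had 0 counts in every library of at least 1 time, and their fitted sizes are not interpretable. Atp5f1, the 1 rhythmic gene of 62 tested of oxidative phosphorylation, was at 0 counts in 32 of 34 libraries and at 21.5 and 18.5 CPM in ZT2 replicates 4 and 7. Such exact zeros of a gene that every cell uses are not read as a level.

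Single genes of further lists also passed the cosine test, which 4.66% of all genes tested passed. Of 17 genes linked to the clock, 3 were rhythmic: Tspan4, Usp2, which encodes a ubiquitin protease, and Csnk1e, which encodes a kinase of PER proteins. Ppard, a lipid-sensing nuclear receptor, and Pdk4 were the 2 of 20 genes of fatty acid oxidation. Atg3, an autophagy conjugation enzyme, was the 1 of 19 autophagy genes (5.26%). With the run as a term the counts of these lists were 1, 2 and 1. Over the 17 summed units, without ZT2 and without ZT18 each list held 0.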
